A study of Homo sapiens with 5 samples.

Results

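The chromatin marked by histone H3 phosphorylated at threonine 6 (H3T6ph) was compared with the chromatin bound by the demethylase LSD1 in LNCaP cells. The members are all deposited peaks of both lists on chromosomes 1 to 22 and X. They comprise 4429 of 4460 H3T6ph peaks and 11654 of 11673 LSD1 peaks, so 31 and 19 peaks on Y were left out. Together the lists held 16083 of the 25987 peaks of the series, whose remaining list is LSD1 in VCaP. Each list comes from chromatin immunoprecipitation followed by sequencing (ChIP-seq) of 1 sample. No value therefore has an error between replicates, and no p-value was computed.

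LNCaP and VCaP are human prostate cancer lines that respond to androgen. The study asked what LSD1 does in androgen signalling. The 5 samples were H3T6ph ChIP in LNCaP, LSD1 ChIP in LNCaP, LSD1 ChIP in VCaP, and RNA of LNCaP given either control siRNA or LSD1 siRNA. The ChIP cells were untransfected, and a single LSD1 antibody served both lines. All cells shared 3 days in charcoal-stripped serum, which removes steroids. The labels mention a hormone stimulation after that without naming the hormone or saying which samples received it. Each line stands for the tumour of 1 patient, and an siRNA lowers its target without removing it. The sequencing depth of the ChIP samples is unknown.

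LSD1, encoded by KDM1A, removes methyl groups from histone H3 with flavin as a cofactor. In the CoREST and NuRD complexes it acts on methylated lysine 4 of H3 and is mostly known as a repressor. It is also described as a coactivator in androgen signalling that acts on methylated lysine 9. Protein kinase C beta phosphorylates threonine 6 of H3, a residue close to lysine 4, and this mark is known to keep LSD1 from demethylating lysine 4. The maps therefore address where the mark and the enzyme are found together and where each is found without the other.

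Sequence is shown for gene starts with a peak within 1 kb, not for the peaks themselves. Each sequence below is the 250 bases before a protein-coding gene's start, 5′ to 3′ on the gene's strand, from RefSeq (GRCh38.p14). Capitals mark any of 10 short motifs on either strand. The motifs were the cAMP response element (TGACGTCA), part of the androgen response element (AGAACA), the GC box (GGGCGG), the ETS motif (CCGGAAG), the CCAAT box, the GATA motif (AGATAA), the TATA box (TATAAA), the E-box (CACGTG), the FOX motif (TGTTTAC) and the NRF1 motif. None of them is a part of another. ZNF341 and TMTC3 had the highest-scoring H3T6ph peaks at a start that overlapped LSD1. PGK1 and CRKL had the highest-scoring H3T6ph peaks at a start without LSD1, and PWWP2A and CAVIN2 the highest-scoring LSD1 peaks without H3T6ph. They are shown to let the reader set a start with both beside starts with only 1. The H3T6ph peak of ZNF341 lies 531 bases from its start and that of CRKL 191 bases, and the peaks named for the other 4 cover the start.
ZNF341, chr20:33731746-33731995, plus strand: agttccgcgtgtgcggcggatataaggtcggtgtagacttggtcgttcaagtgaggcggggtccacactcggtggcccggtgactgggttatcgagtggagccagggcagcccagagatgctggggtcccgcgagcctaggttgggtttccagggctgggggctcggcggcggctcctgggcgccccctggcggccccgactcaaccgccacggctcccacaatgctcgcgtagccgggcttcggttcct
TMTC3, chr12:88142057-88142306, plus strand: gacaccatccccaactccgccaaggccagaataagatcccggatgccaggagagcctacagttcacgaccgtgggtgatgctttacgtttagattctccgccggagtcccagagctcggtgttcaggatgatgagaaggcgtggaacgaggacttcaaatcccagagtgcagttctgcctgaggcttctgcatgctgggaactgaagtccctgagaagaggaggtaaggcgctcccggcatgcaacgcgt
PGK1, chrX:78103998-78104247, plus strand: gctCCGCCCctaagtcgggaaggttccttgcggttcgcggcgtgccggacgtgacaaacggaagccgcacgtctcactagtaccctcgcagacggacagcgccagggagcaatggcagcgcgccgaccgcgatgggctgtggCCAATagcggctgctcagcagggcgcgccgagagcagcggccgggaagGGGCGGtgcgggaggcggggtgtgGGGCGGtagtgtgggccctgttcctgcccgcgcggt
CRKL, chr22:20917157-20917406, plus strand: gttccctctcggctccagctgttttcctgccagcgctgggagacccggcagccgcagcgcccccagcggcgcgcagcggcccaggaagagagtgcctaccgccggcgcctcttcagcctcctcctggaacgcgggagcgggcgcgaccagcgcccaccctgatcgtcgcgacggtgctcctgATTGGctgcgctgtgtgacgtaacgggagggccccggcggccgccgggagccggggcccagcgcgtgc
PWWP2A, chr5:160119451-160119700, minus strand: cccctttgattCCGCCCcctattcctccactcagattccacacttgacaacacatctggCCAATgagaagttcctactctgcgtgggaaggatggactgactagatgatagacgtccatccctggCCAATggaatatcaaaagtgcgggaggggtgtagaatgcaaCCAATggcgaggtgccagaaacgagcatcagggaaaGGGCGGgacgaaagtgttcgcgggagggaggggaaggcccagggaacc
CAVIN2, chr2:191847089-191847338, minus strand: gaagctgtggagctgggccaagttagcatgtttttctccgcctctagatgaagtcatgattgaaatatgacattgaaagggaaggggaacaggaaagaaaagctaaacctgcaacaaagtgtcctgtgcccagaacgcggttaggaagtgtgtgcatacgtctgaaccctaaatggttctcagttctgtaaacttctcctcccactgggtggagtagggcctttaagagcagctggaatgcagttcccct

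The ZNF341 and TMTC3 stretches held none of the 10 motifs. PGK1 and PWWP2A each held the CCAAT box and the GC box GGGCGG, to which NF-Y and SP1 bind, and CRKL held a CCAAT box. The stretch of PGK1 had a GC content of 71.2% and 32 CpG dinucleotides, and that of CRKL had 74.4% and 32. The stretch of PWWP2A had 55.2% and 10, and that of CAVIN2 48.0% and 4. In these 4 examples the H3T6ph starts were richer in GC than the LSD1 starts. Over all starts with a peak the medians went the other way, at 61.3% for H3T6ph and 64.3% for LSD1, as given further on. PGK1, a glycolytic kinase, was at 1244 FPKM in the control library and CAVIN2, a caveolar coat protein, at 0.0497 FPKM. FPKM scales fragment counts to transcript length and to library size. Starts under peaks therefore included both very active and nearly silent genes.

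The H3T6ph list was shorter and its peaks were narrower. The median width was 466 bases for H3T6ph (quartiles 393 and 582) and 730 bases for LSD1 (602 and 894). H3T6ph peaks covered 2.26 Mb and LSD1 peaks 9.03 Mb. The peak caller's score, whose scale is not stated, had a median of 60.8 for H3T6ph and 66.6 for LSD1. Both lists started at a score of 50, and 521 H3T6ph and 1598 LSD1 peaks (11.8% and 13.7%) scored over 100.

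Both lists lay mostly away from gene ends. Peaks were classed by the gene intervals of the RNA table as gene end (within 1 kb of either end), inside a gene, or between genes. Of the H3T6ph peaks 308 (6.95%, 95% Wilson interval 6.24 to 7.74%) were at gene ends. Of the LSD1 peaks 1120 (9.61%, 9.09 to 10.2%) were. These intervals do not overlap, and they cover counting error only. The gene-end class takes 2.37% of the chromosome length, so both lists were denser there than elsewhere, at 4.29 H3T6ph and 15.6 LSD1 peaks per Mb. A peak entered this class if any part of it was within 1 kb, while the length counts only bases within 1 kb. LSD1 peaks were the wider, and the part of width in these shares and densities was not tested.

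Inside genes lay 43.8% (42.3 to 45.2%) of H3T6ph and 44.7% (43.8 to 45.6%) of LSD1 peaks, against 38.6% of the chromosome length. The intervals of these shares overlap. Between genes lay 49.3% (47.8 to 50.8%) of H3T6ph and 45.7% (44.8 to 46.6%) of LSD1 peaks, against 59.1% of the length. Peaks over 100 kb from any gene made up 15.5% of the H3T6ph list and 15.6% of the LSD1 list. The lists differed in site class by a few percentage points, with LSD1 more at gene ends and H3T6ph more between genes. Above each list's median score the gene-end shares were 6.82% for H3T6ph and 8.375% for LSD1. In the top decile by score they were 5.42% and 6.60%, and the between-gene shares were 53.05% and 51.03%.

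**Figure D1:**
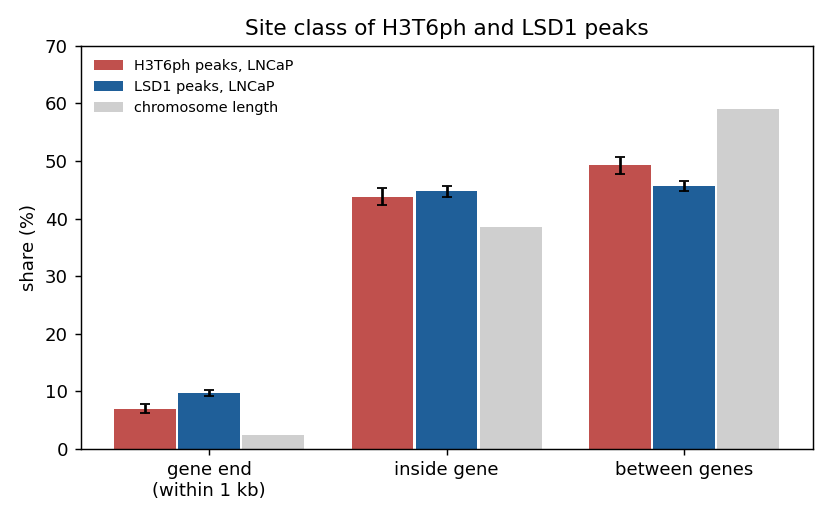
Share of peaks (%) by site class for H3T6ph (4429 peaks) and LSD1 (11654 peaks) in LNCaP beside the share of chromosome length; bars on the 2 lists are 95% Wilson intervals. LSD1 had 9.61% and H3T6ph 6.95% of peaks at gene ends, and both stood above the 2.37% that this class takes of the chromosomes.

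At gene ends the peaks sat at the start and not at the far end. The side was read from the strand of 8051 protein-coding genes whose interval held no other gene and spanned 10 kb or more. Within 1 kb of the start there were 462 LSD1 peak centres, against 86 within 1 kb of the far end. For H3T6ph the counts were 105 and 27. Per kb, LSD1 near starts was 5.97 times its level beyond 5 kb (231 against 38.7 peaks), and H3T6ph was 3.02 times (52.5 against 17.4). At the far end the ratios were 1.10 and 0.865. LSD1 centres lay more before the start (286 in the last kb) than after it (176 in the first kb), whereas H3T6ph was even, at 55 and 50.

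**Figure D2:**
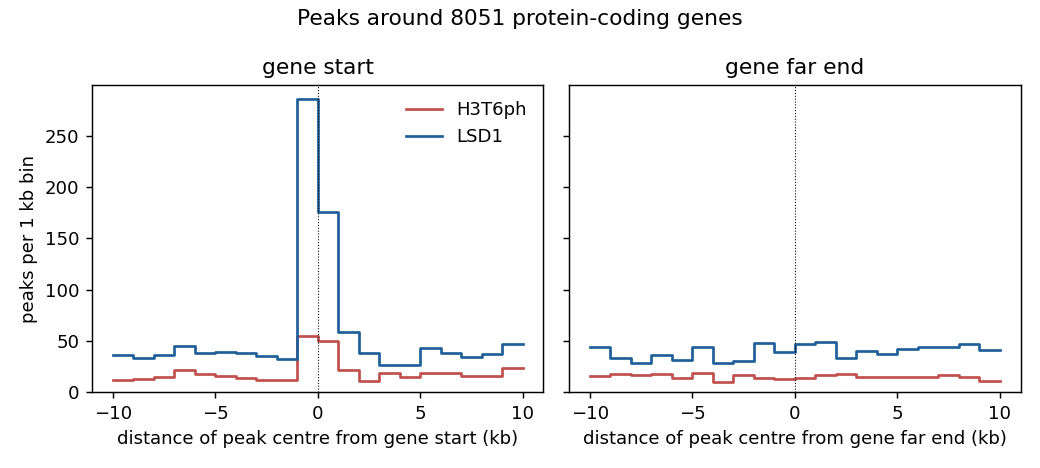
Peaks per 1 kb bin of distance from the start (left) and the far end (right) of 8051 protein-coding genes, for H3T6ph and LSD1 in LNCaP, within 10 kb of each. Both lists peak at the start, with 462 LSD1 and 105 H3T6ph centres within 1 kb, and neither does at the far end.

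Most H3T6ph peaks had no LSD1 peak at the same place. An LSD1 peak overlapped 668 of 4429 H3T6ph peaks (15.1%, 14.1 to 16.2%), and an H3T6ph peak overlapped 670 of 11654 LSD1 peaks (5.75%, 5.34 to 6.19%). Another 47 H3T6ph peaks (1.06%) lay within 1 kb of LSD1 without overlap, 412 (9.30%) at 1 to 10 kb, and 1849 (41.75%) at 10 to 100 kb. At 100 kb to 1 Mb there were 1411 (31.9%), and 42 (0.948%) were over 1 Mb away. The median distance from an H3T6ph peak to LSD1 was 50.4 kb (quartiles 9.64 and 134.8 kb). In the other direction it was 187.9 kb (60.1 and 443.4 kb), with 1 H3T6ph peak per 0.685 Mb to be found against 1 LSD1 peak per 0.260 Mb.

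Few H3T6ph peaks lay close to LSD1 without touching it. In 1 kb bins up to 10 kb, 33 to 60 H3T6ph peaks had their nearest LSD1 peak, with 47 in the first bin, against the 668 that overlapped. No build-up at short gaps was visible. Distances within each list give a scale for this: 364 H3T6ph peaks (8.22%) had another H3T6ph peak within 10 kb, and 1127 (25.4%) had LSD1 within that distance. An LSD1 peak had another LSD1 peak within 10 kb in 9.50% of cases and H3T6ph in 9.89%, although the H3T6ph list is shorter. Peaks of 1 list cannot overlap each other, so the own-list values count neighbours only.

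**Figure D3:**
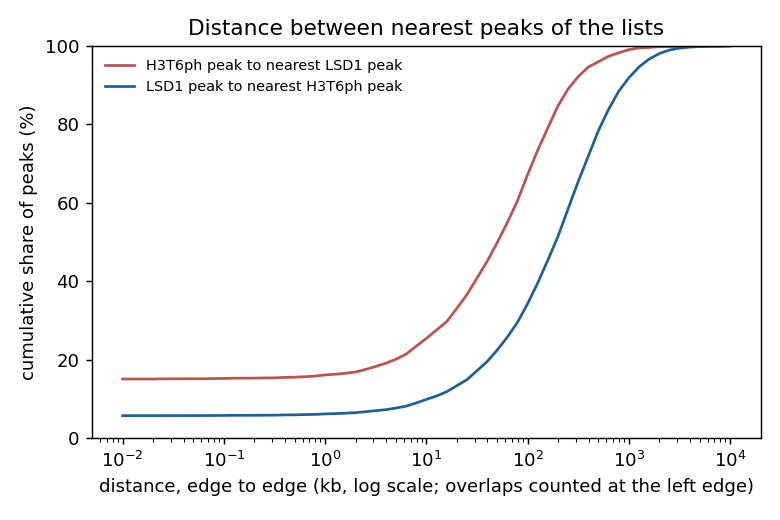
Cumulative share of peaks (%) against the edge-to-edge distance (kb, log axis) to the nearest peak of the other list; overlaps are counted at the left edge. The H3T6ph curve starts at 15.1% and passes its median at 50.4 kb, the LSD1 curve at 5.75% and 187.9 kb.

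Where the lists overlapped, the peaks were nearly concentric. Among the 668 pairs the centres were a median of 84.75 bases apart, and in 598 (89.5%) they were within 250 bases. The H3T6ph peak lay wholly inside the LSD1 peak in 395 pairs (59.1%) and the reverse held in 32 (4.79%). The scores of the partners were weakly related (Spearman's rho 0.15 over 668 pairs, which share a position, given as a description).

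Shared sites resembled the rest of their lists in site class and differed in score and in VCaP. Of the shared H3T6ph peaks 7.04% were at gene ends, 43.6% inside and 49.4% between genes, close to the 6.94%, 43.8% and 49.3% of those not shared. Read by class, 15.3% of gene-end, 15.0% of inside and 15.1% of between-gene H3T6ph peaks overlapped LSD1. Their intervals overlap, so no class stood apart. For LSD1 the shares were 4.64% (3.56 to 6.04%), 5.53% and 6.198% (5.58 to 6.88%).

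Shared H3T6ph peaks had a median score of 69.8 and a median width of 534.5 bases, against 59.6 and 454 bases for the others. For LSD1 the medians were 76.25 and 821 bases, against 66.2 and 725. The LSD1 list of VCaP, with 9814 peaks, overlapped 330 of 668 shared H3T6ph peaks (49.4%, 45.6 to 53.2%) and 804 of 3761 unshared ones (21.4%, 20.1 to 22.7%). It overlapped 333 of 670 shared LSD1 peaks (49.7%, 45.9 to 53.5%) and 877 of 10984 unshared ones (7.98%, 7.49 to 8.51%). A site with both marks in LNCaP was thus listed in VCaP more often than a site with 1, and LNCaP LSD1 sites without H3T6ph were listed there least often. Shared peaks were also wider and higher-scoring, and the part of width, score and mappability in these shares was not tested. An unshared H3T6ph peak overlapped VCaP LSD1 (21.4%) more often than LNCaP H3T6ph peaks as a whole overlapped LNCaP LSD1 (15.1%).

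Overlap followed the score. In the top decile of H3T6ph peaks by score 27.5% (23.6 to 31.9%) overlapped LSD1, and in the lowest 10.6% (8.09 to 13.9%) did. The lowest share, 7.22%, was in the seventh decile. For LSD1 the share went from 12.5% (10.7 to 14.6%) at the top to 3.09% (2.24 to 4.25%) at the bottom. The gene-end share ran the other way for LSD1, from 6.60% in the top decile to 10.9% in the lowest. For H3T6ph it was 5.42% in the top decile and between 6.32% and 8.13% in the others, with no steady trend. High-scoring sites were thus more often shared in both lists, and less often at gene ends in the LSD1 list. Width moved with score (median 942.5 bases in the top and 598 in the lowest decile of LSD1). The part of width in the overlap was not tested.

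**Figure D4:**
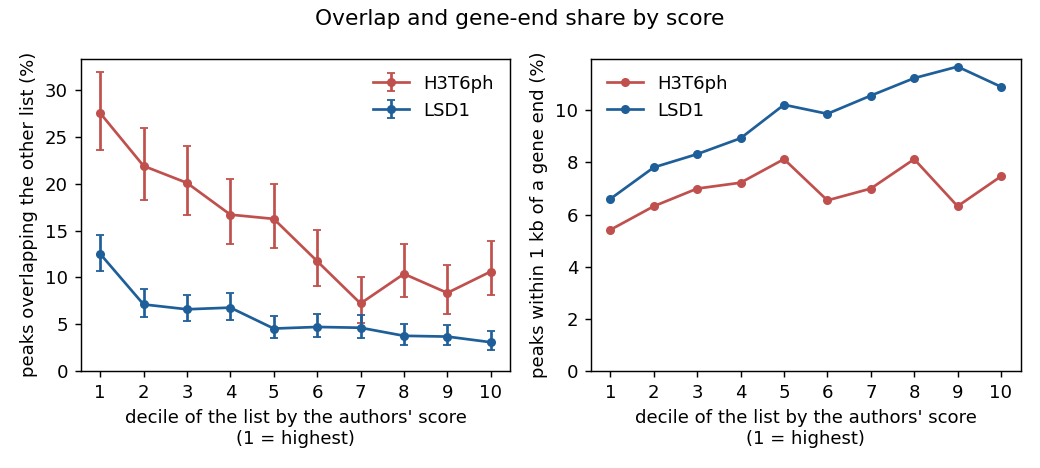
Share of peaks overlapping the other list (left, %) and share within 1 kb of a gene end (right, %) by decile of each list, ranked by the authors' score with 1 the highest; bars in the left panel are 95% Wilson intervals. Overlap goes from 27.5% to 10.6% for H3T6ph and from 12.5% to 3.09% for LSD1 between the top and the lowest decile.

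Many of the highest-scoring sites also met a listed LSD1 peak of VCaP. Of the top 45 H3T6ph peaks (score 245 or more) 19 overlapped LSD1 and 35 overlapped VCaP LSD1. Over 100 kb from a gene were 11 of the 45. Of the top 117 LSD1 peaks (score 189 or more) 37 overlapped H3T6ph, 50 overlapped VCaP LSD1, and 30 were over 100 kb from a gene. At any score, VCaP LSD1 overlapped 49.4% of shared and 21.4% of unshared H3T6ph peaks, and 49.7% and 7.98% of LSD1 peaks. The 8 highest-scoring shared H3T6ph peaks all overlapped VCaP LSD1. The first (chr1:91852677-91853251 in hg19, the build of all peak positions) scored 1731 inside HFM1, a DNA helicase of meiosis, and its LSD1 partner scored 895. Others lay inside PDE3A, a cyclic nucleotide phosphodiesterase (score 827.5), DLG2, a synaptic scaffold (616), and PID1 (582). HFM1 and PDE3A were under 1 FPKM in both libraries. The fourth, at chr7:61968538-61969785, scored 743 with the nearest gene 781.9 kb away. The LSD1 peak with the highest score of its list, 1347, named in addition after its value was seen, at chr6:58776073-58779459, was 3387 bases wide and 488.3 kb from a gene. Mappability was not tested, and the control track is not given in the sources used here.

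H3T6ph peaks over 100 kb from LSD1 were led by PGK1. Its peak (chrX:77359201-77359934) covered the low end of the gene's interval with a score of 846, the nearest LSD1 peak was 1311 kb away, and no VCaP LSD1 peak overlapped it. The next 7 all overlapped VCaP LSD1. Among them were a peak 3.43 kb from MLPH, which links pigment granules to myosin (chr2:238467395-238468307, score 307), 1 inside PTPRN2 (281), and 1 at 6.17 kb from IRX4, a homeobox factor (263). So 7 of the 8 highest-scoring H3T6ph peaks far from LNCaP LSD1 overlapped VCaP LSD1, as 35 of the top 45 at any distance did. Over all unshared H3T6ph peaks the share was 21.4%.

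LSD1 peaks over 100 kb from H3T6ph were led by the start of PWWP2A, a reader of H2A.Z nucleosomes (chr5:159546278-159547312, score 469.5), 463.8 kb from H3T6ph. Others lay inside PTPRE, a tyrosine phosphatase (353), RUNX1, a transcription factor (322), and ANP32E, an H2A.Z chaperone (317), or 2.90 kb from NFATC2 (345.5). Of these 8 peaks, 4 overlapped VCaP LSD1, as did 50 of the top 117 LSD1 peaks and 7.98% of all unshared ones.

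The lists shared their broad distribution. Over 2826 bins of 1 Mb, 1792 held both, 788 LSD1 only, 121 H3T6ph only and 125 neither. Counts per bin had Spearman's rho 0.36, and 0.27 with shared peaks left out. Each also followed the number of gene intervals (0.28 for H3T6ph and 0.35 for LSD1). Bins differ in gene content and in mappable length, so these are descriptions. There were 38.0 H3T6ph peaks per 100 LSD1 peaks overall. Chromosome 10 was lowest with 27.5, then 4 with 29.2 and 1 with 29.4, and chromosome 21 was highest with 69.5. X had the lowest density of both, at 0.439 and 0.923 per Mb against 1.46 and 3.84 overall. The share of H3T6ph peaks with LSD1 was 10.9% to 20.6% by chromosome, and all 23 intervals held the overall share.

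Genes near the lists were counted among 12748 genes that reached 1 FPKM with control or LSD1 siRNA, near meaning a peak within 20 kb of the interval. H3T6ph was near 2303 genes (18.1% of those counted), LSD1 near 5315 (41.7%) and both near 1324 (10.4%). The genes near both made up 57.5% of the H3T6ph genes and 24.9% of the LSD1 genes. An overlapping site was near 441 (3.46%). H3T6ph alone was near 979, LSD1 alone near 3991 and neither near 6454. Most genes near both therefore had separate peaks, not a shared site.

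Gene length moved with these classes. The median interval was 93.45 kb for genes near both, 37.7 kb near H3T6ph alone, 44.4 kb near LSD1 alone and 22.5 kb near neither. Of the H3T6ph genes under 10 kb, 39.35% were also near LSD1, against 81.3% of those over 100 kb. Overlapping genes can share an interval and hence its peaks. PDE4D, a cyclic AMP phosphodiesterase in an interval of 1579 kb, held 8 H3T6ph and 16 LSD1 peaks, of which 2 were shared. CDC27, a subunit of the anaphase-promoting complex, held 8 H3T6ph peaks and 1 LSD1 peak in only 71.4 kb. CDC27 has near-identical copies elsewhere in the genome, so its peaks are uncertain. AFF3, of the AF4 family of nuclear proteins, held 6 and 5.

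The level of expression hardly separated the classes. The median in the control library was 13.7 FPKM near H3T6ph alone, 12.8 near LSD1 alone, 12.2 near both and 12.5 near neither. These medians lie well within the quartiles of every class, which span 4.85 to 30.7 FPKM.

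At gene starts both lists went with expressed genes. Of 11317 protein-coding starts, 161 (1.42%) had H3T6ph within 1 kb, 648 (5.73%) had LSD1 and 28 (0.247%) had both, with overlapping peaks at 22. Genes at 1 FPKM or more made up 85.1% of the H3T6ph starts, 87.2% of the LSD1 starts and 62.9% of all starts. With genes under 1 FPKM included, the control medians of the 3 groups of starts were 9.33, 11.2 and 4.68 FPKM. The H3T6ph and LSD1 starts thus had like shares of expressed genes, both above that of all starts. Among the 28 were CXCL8, the chemokine interleukin 8, GSTP1, a glutathione transferase, and HSPA13, a chaperone. FTO and RPGRIP1L, which share a start region, had the same pair of peaks. At GSTP1 the level was only 1.00 FPKM.

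Of the 10 motifs, the cAMP response element TGACGTCA, bound by CREB and ATF factors, was singled out after the values were seen. It was held by 14 of 161 H3T6ph starts (8.70%, 5.25 to 14.1%), 24 of 648 LSD1 starts (3.70%, 2.501 to 5.45%) and 285 of 11317 starts in all (2.52%, 2.25 to 2.82%), between 250 bases before and 50 after the start. Read from the motif, 14 of 285 starts with it had H3T6ph (4.91%, 2.95 to 8.08%), against 147 of 11032 without it (1.33%, 1.14 to 1.56%). For LSD1 the shares were 8.42% (5.72 to 12.2%) and 5.66% (5.24 to 6.10%). The windows below are the 6 of the 14 with the highest H3T6ph score, from RefSeq (GRCh38.p14), 5′ to 3′ on the gene's strand, with TGACGTCA in capitals.
NUP42, chr7:23181955-23182002, plus strand: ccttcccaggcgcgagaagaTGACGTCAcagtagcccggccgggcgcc
WASHC3, chr12:102062160-102062207, minus strand: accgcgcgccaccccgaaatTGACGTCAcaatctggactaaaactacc
GOLPH3, chr5:32174320-32174359, minus strand: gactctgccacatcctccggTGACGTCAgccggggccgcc
DDX19A, chr16:70346840-70346887, plus strand: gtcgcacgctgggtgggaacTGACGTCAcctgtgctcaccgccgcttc
MAP3K13, chr3:185282837-185282884, plus strand: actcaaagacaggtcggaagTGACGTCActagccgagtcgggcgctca
TMEM39A, chr3:119463620-119463667, minus strand: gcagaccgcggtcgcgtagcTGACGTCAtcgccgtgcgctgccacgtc

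NUP42 is a nuclear pore protein, WASHC3 a subunit of the WASH complex of endosomes, GOLPH3 a Golgi protein, DDX19A an RNA helicase and MAP3K13 a kinase of the JNK pathway. The motif lies from 20 to 196 bases before the start in these 6. GOLPH3 and DDX19A were the only 2 of the 14 with LSD1 at the start as well. The others were NUP214, CTDP1, RNPS1, CLCN3, NEDD1, ZNF200, NUBPL and ZNF330. Control levels of the 14 ran from 5.38 FPKM (NUBPL) to 66.8 FPKM (RNPS1). A match is a description of the letters in the window.

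Several other motifs differed between starts with LSD1 and all starts. Genes at 1 FPKM or more made up 87.2% of LSD1 starts and 85.1% of H3T6ph starts, against 62.9% of all starts. The part of expression in the motif shares, that of TGACGTCA included, was not tested. The androgen response element part AGAACA was in 7.45% (4.32 to 12.6%) of H3T6ph starts, 10.8% (8.64 to 13.4%) of LSD1 starts and 11.3% of all. GGGCGG was in 57.8% (50.04 to 65.1%), 65.3% (61.5 to 68.8%) and 59.4%, and the ETS motif CCGGAAG in 16.15% (11.3 to 22.6%), 18.7% (15.9 to 21.9%) and 13.95%. TATAAA was in 6.83% (3.86 to 11.8%), 6.02% (4.43 to 8.12%) and 9.76%. The GATA motif AGATAA was in 5.59% (2.97 to 10.3%), 5.40% (3.91 to 7.42%) and 8.08%. The LSD1 intervals for GGGCGG and CCGGAAG thus lay above the share of all starts and those for TATAAA and AGATAA below it. For H3T6ph the interval of TGACGTCA alone, of these 6 motifs, left out the share of all starts. The remaining 4 motifs held that share within the interval of either list. With only peaks that cover the start itself, the LSD1 interval for GGGCGG (58.01 to 67.89%) held the share of all starts. That for CCGGAAG (16.56 to 24.83%) still lay above it. In that setting the H3T6ph interval of the E-box CACGTG (8.945 to 23.9%) also left out the share of all starts, 8.651%. Median GC content was 61.3%, 64.3% and 62.7%.

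KDM1A itself was the check of the siRNA, at 37.0 FPKM in the control library and 6.87 FPKM after LSD1 siRNA, and the authors' deposited table gives its lowest q as 0. Its own locus had an H3T6ph peak 1.19 kb away and its nearest LSD1 peak 260.5 kb away. Fold changes are log2 ratios of FPKM + 1 in the LSD1 siRNA library to that in the control library, a scale that understates the change of low genes. With 1 library a group, genes are described by a fixed size of 1.5-fold. Of all 12748 genes 304 (2.38%) were lower and 245 (1.92%) higher by that size. Near both lists 40 of 1324 (3.02%) were lower and 26 (1.964%) higher. Near an overlapping site 20 of 441 (4.535%) were lower and 8 (1.81%) higher.

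The share of lower genes was thus larger near overlapping sites than over all genes, and the share of higher genes was not, at the 1.5-fold size. At 2-fold the lower share was the same, 5 of 441 (1.13%) near overlapping sites and 1.13% of all, and the higher share was 1.13% (5 of 441) against 0.847%. Among protein-coding genes the lower count was 14 of 408 (3.43%) near an overlapping site against 136 of 11620 (1.17%) over all. Near both lists without an overlapping site it was 6 of 805 (0.745%). The higher count was 5 of 408 (1.23%) against 121 (1.04%). Medians differed little, at -0.04 near an overlapping site and -0.01 over all. With a pseudocount of 5 the lower count near an overlapping site dropped to 9 of 441 (2.04%), against 1.60% of all.

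The lower protein-coding genes near an overlapping site were picked after their values were seen, from those at 5 FPKM or more. SLC45A3, a prostate membrane transporter, was at 173 and 114 FPKM in the control and LSD1 siRNA libraries (log2 -0.60), with the shared site at chr1:205667813-205668345, 18.2 kb away. GOLM1, a Golgi membrane protein, was at 141 and 90.5 FPKM (-0.64). Both were well expressed in LNCaP. NNMT, which methylates nicotinamide, was at 6.61 and 3.68 FPKM (-0.70). OTULINL was at 18.7 and 8.82 FPKM (-1.005), and MYBPC1, a myosin-binding protein, at 11.02 and 5.53 FPKM (-0.88). The authors' deposited table calls OTULINL (lowest q 0.0002695) but not SLC45A3 (0.342), NNMT (0.2825) or MYBPC1 (1). Others were MBOAT2, ATAD2, C2orf76, GMDS, GPATCH4 and SLC16A6, between -0.73 and -0.59. With a pseudocount of 5, SLC45A3, NNMT, ATAD2, C2orf76, GMDS, GPATCH4 and SLC16A6 came under the 1.5-fold size (-0.58 to -0.39), and OTULINL, MYBPC1, GOLM1 and MBOAT2 did not.

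On the higher side MAN1A1, a Golgi mannosidase that trims N-glycans, was at 3.23 and 9.79 FPKM (1.35). Its interval held 4 LSD1 peaks and 1 H3T6ph peak (chr6:119558186-119558904, score 443), which overlapped 1 of them. VCaP LSD1 had a peak of score 973 at the same place, whereas the overlapping LNCaP LSD1 peak scored 79.9. Mappability at this site was not tested. CLU, the chaperone clusterin, was at 18.2 and 47.0 FPKM (1.32), with a shared site 0.602 kb from its interval. CXCL8 was at 3.39 and 5.93 FPKM (0.66), with both peaks over its start. C19orf33 was at 2.95 and 6.41 FPKM (0.91). With a pseudocount of 5, CXCL8 (0.38) and C19orf33 (0.52) came under the 1.5-fold size. The authors' deposited table calls MAN1A1 (lowest q 1.57e-07) and CLU (2.47e-07), and not CXCL8 (0.3495). Of the genes at 5 FPKM or more past 2-fold near an overlapping site, 6 were short RNA genes (MIR23B, MIR24-1, MIR4263, MIR4429, MIR4513 and SNORD95), and FPKM is unreliable at their length.

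Androgen-induced genes, from a list chosen with earlier results of these data known, were often near both lists. Of 56 measured, 18 were near H3T6ph, 31 near LSD1, 13 near both (23.2%, against 10.4% of all) and 6 near an overlapping site. Over all genes 18.1% were near H3T6ph, 41.7% near LSD1 and 3.46% near an overlapping site. Their median interval of 51.7 kb was longer than the 31.8 kb of all genes. Those near both included ACSL3, ARFGAP3, FKBP5, KCNN2, KLK2, KLK3, KLK4, LIFR, NNMT, SLC45A3, STEAP4 and TUBA3D. After LSD1 siRNA 14 of the 56 were lower by 1.5-fold (2.38% of all genes were) and 0 higher (1.92% of all). The median log2 change was -0.37, against -0.01 for all genes. Of the 13, 5 were lower, FKBP5, NNMT, SLC45A3 and STEAP4 among them, and the median was -0.45.

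The kallikrein cluster showed shared and unshared LSD1 sites side by side. KLK3 encodes prostate-specific antigen and KLK2 a related protease, and both are textbook targets of androgen signalling. From the low end of KLK3, LSD1 peaks began at -4.42, 14.3, 34.4 and 66.5 kb with scores of 58.5, 125.6, 118.1 and 102.2. H3T6ph peaks began at -4.47 kb (score 80.95) and 34.4 kb (106.8), so 2 of the 4 LSD1 sites were shared. The LSD1 peak with the highest score, between KLK3 and KLK2, was 18.0 kb from H3T6ph. The shared site at 34.4 kb lay inside the pseudogene KLKP1 and was the nearest H3T6ph peak of KLK2 and KLK4. Across the region drawn, VCaP LSD1 had a peak only before KLK3. KLK3 was at 2474 and 1941 FPKM (-0.35), KLK2 at 338.5 and 254 (-0.41) and KLK4 at 217 and 187 (-0.22), each under the 1.5-fold size.

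**Figure D5:**
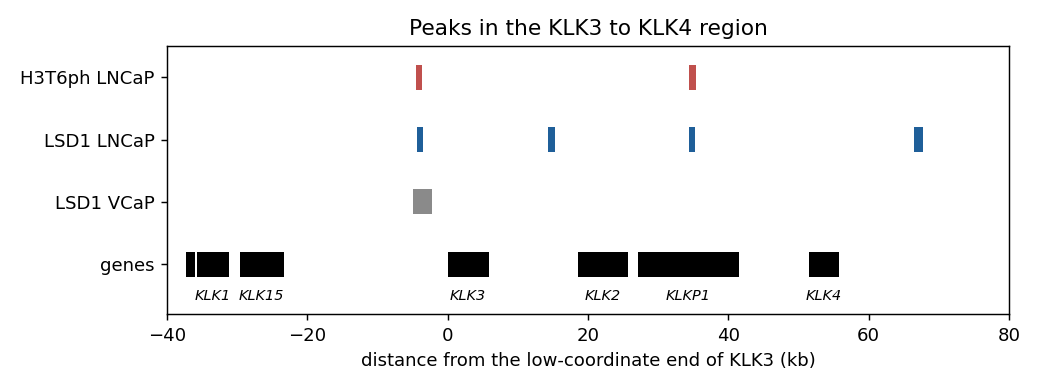
Map of peaks in the kallikrein region as distance (kb) from the low-coordinate end of KLK3, with rows for H3T6ph in LNCaP, LSD1 in LNCaP, LSD1 in VCaP and gene intervals. H3T6ph coincides with 2 of the 4 LNCaP LSD1 peaks, and VCaP LSD1 has a peak at the first of them only.

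At FKBP5 and STEAP4 the lists lay near each other without overlap. FKBP5, a chaperone of steroid receptors, had H3T6ph at chr6:35690106-35690849 (score 272) and LSD1 at chr6:35694466-35695279 (50.7), 3.62 kb apart, and a VCaP LSD1 peak of score 84.4 covered the H3T6ph site. It was at 190 and 115 FPKM (-0.72). STEAP4, a metalloreductase, had H3T6ph at chr7:87934362-87934891 (88.1) near the high end of its interval and LSD1 at chr7:87910721-87911533 (64.2) near the low end, 22.8 kb apart. It was at 9.89 and 2.52 FPKM (-1.63). The authors' deposited table gives a lowest q of 5.84e-05 for STEAP4 and 0.171 for FKBP5, and calls only the former of these 2.

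At FOXA1 and TMPRSS2 H3T6ph lay nearer than LSD1, which did not hold at every prostate gene named here. LSD1 was nearer at KLK2 (3.17 against 8.77 kb), KLK4 (10.65 against 16.08 kb) and ACSL3 (inside the interval against 13.71 kb). FOXA1, a pioneer factor, had H3T6ph 0.778 kb away and LSD1 22.3 kb away. TMPRSS2, a serine protease, had neither list within 20 kb, with H3T6ph at 20.3 kb and LSD1 at 30.4 kb. FOXA1 was at 163 and 137 FPKM (-0.25) and TMPRSS2 at 357 and 278.5 FPKM (-0.36), each under the 1.5-fold size.

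Genes of the enzymes that act on this part of H3 were also looked up, to be read against the 18.1% of all genes near H3T6ph, 41.7% near LSD1 and 10.4% near both. Of 12 genes of protein kinase C and related kinases measured, 4 were near H3T6ph and 9 near LSD1, and PRKCD, PRKCE, PRKCH and PRKCZ were near both. Their median interval was 117.8 kb, against 31.8 kb for all genes. Of all counted genes over 100 kb, 33.0% were near H3T6ph, 70.2% near LSD1 and 26.8% near both. The part of length in the counts of these gene groups was not tested. PRKCB, the gene of the kinase known for this mark, was at 0.00775 and 0.01003 FPKM, and its nearest H3T6ph peak was 473 kb away. Of 17 LSD1 and CoREST genes 4 were near H3T6ph, 11 near LSD1 and 3 near both (CTBP1, CTBP2 and HDAC1), with 0 at an overlapping site. Of 11 NuRD genes 3, 5 and 1 (MTA2) were. Of 19 JmjC demethylase genes (median interval 103 kb) 3, 8 and 1 were, and at that gene, KDM4B, both peaks overlapped inside the interval with LSD1 at a score of 145.5.

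Of 22 genes of steroid receptor cofactors and lineage factors, 8 were near H3T6ph, 11 near LSD1 and 5 near both (NCOA2, NCOA3 and TLE1 among them), with 0 at an overlapping site. The shares over all genes were again 18.1%, 41.7% and 10.4%, and the median interval of the 22 was 93.8 kb. Among all counted genes of 30 to 100 kb the shares were 19.1%, 42.7% and 9.32%. Among those over 100 kb they were 33.0%, 70.2% and 26.8%. Of 16 lipid synthesis genes 4 were near H3T6ph, 10 near LSD1 and 3 near both. These were ACACA, which makes malonyl-CoA, AMACR, a racemase of branched fatty acids, and FASN, the fatty acid synthase. At ACACA both peaks overlapped inside the gene, and its level was 82.2 and 55.9 FPKM (-0.55). Of 15 androgen-repressed genes 4, 7 and 3 were (OPRK1 and ST7 among them), and OPRK1, an opioid receptor gene, had a shared site inside its interval.

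The RNA libraries held luminal prostate transcripts, which do not tell LNCaP from another luminal line. All 8 luminal prostate markers were expressed at 1 FPKM or more, up to 2474 FPKM (KLK3) in the control library. The 3 basal, 3 immune and 2 endothelial markers were all under 1 FPKM. Of the remaining markers COL1A1 was at 8.77 FPKM and SYP at 1.05 FPKM.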

How the data were processed

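ChIP-seq peak lists of H3T6ph and LSD1 in LNCaP and of LSD1 in VCaP, and RNA-seq of LNCaP, were analysed, with 1 sample per group and 1 peak list per ChIP sample. Build hg19 and the tools MACS2, Bowtie2 2.0.0, Cuffdiff 2.0.1 and TopHat2 2.0.4 stand in the submitters' processing notes. The authors deposited a score per peak, whose scale is not stated and which was used to rank peaks within a list. Expression was deposited by the authors as FPKM per RefSeq accession, in the Cuffdiff layout per the file headers. The same deposited table holds the authors' p-value and q-value per accession. Not given in the sources used here are the ChIP control, the handling of duplicates and the annotation release, and ChIP depth is unknown.

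Of 40253 accessions 38934 (96.7%) were matched to a RefSeq symbol (GRCh38.p14, used for names, types and strand), FPKM was summed by symbol, and 42 genes with a failed accession were left out. Genes at 1 FPKM or more entered, and fold changes used a pseudocount of 1. Overlap meant 1 shared base or more. Peak positions are 1-based. Gene intervals carry no strand and can span several genes. Promoters (250 bases before and 50 after the start) were matched by symbol for 11317 protein-coding genes alone in their interval. No genome of build hg19 was used, so no peak sequence is shown. Shares carry 95% Wilson intervals. Python 3.11.15, pandas 2.3.3, NumPy 2.4.6, SciPy 1.17.1 and matplotlib 3.10.9 were used. The nearest-peak and site-class steps were tested on simulated data.

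The members and the 17 gene lists were chosen with earlier results of these data known. The rule for named genes took a fixed set that included KDM1A, KLK3, KLK2, TMPRSS2, FKBP5, STEAP4, PRKCB and FOXA1, the gene within 20 kb of each of the 8 highest-scoring peaks of 3 kinds (H3T6ph shared, H3T6ph over 100 kb from LSD1, LSD1 over 100 kb from H3T6ph), the 3 genes with most peaks, list members near both, genes at 5 FPKM or more near an overlapping site changed by 2-fold, and 3 starts of each kind for sequences, of which the first 2 are printed. Some results that the rule takes in are not reported here. Alternatives covered the overlap rule, list length, score, VCaP sites, gene-end and gene distances, gene sets, pseudocount and filter.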

Additional observations from a re-analysis of the deposited data

How the results depend on the processing

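Of 98 alternatives for the main values, 54 gave the same and 44 moved the value by more than its counting interval or by over 1.5 times. A reversal of direction was not looked for in these values, most of which are shares, counts or distances. Of 172 for single genes 160 were the same and 12 moved, all by crossing the 1.5-fold size or falling back from it under another pseudocount. No paired analysis was possible because each group held 1 sample, and for the same reason no sample could be left out.

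The share of H3T6ph peaks overlapping LSD1 became 11% with at least 50% of each peak, 13.55% among peaks above each list's median score, 8.42% with LSD1 reduced to the highest-scoring 4429 peaks and 10.2% without VCaP LSD1 sites. The share of LSD1 peaks became 4.18%, 5.17%, 8.44% and 3.23% in the same order, and 6.204% with a gap of up to 1 kb. With lists of equal length the median distances were 158.7 kb from H3T6ph and 181.6 kb from LSD1, closer to each other than with the full lists.

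Gene-end shares of H3T6ph and LSD1 were 5.37% and 7.87% within 500 bases, 11.04% and 13.35% within 2.5 kb, and 5.42% and 7.89% with intervals of genes at 1 FPKM or more. They were 6.30% and 9.05% with protein-coding intervals, and 6.82% and 8.375% above the median score. Inside shares were 41.7% and 42.65% with 2.5 kb, 42.1% and 42.85% with protein-coding intervals, 29.98% and 30.6% with expressed intervals, and 45.8% for LSD1 with 500 bases.

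Genes near both numbered 2335 within 50 kb, 538 above the median scores and 2233 with no filter on low values. No filter gave 1603 near H3T6ph alone, 6274 near LSD1 alone and 12391 near neither. Scores above the median gave 2448 near LSD1 alone, and 50 kb gave 4267 near neither. Near both lists, lower genes numbered 26 with a pseudocount of 5 and 20 among protein-coding genes, and higher genes 40 with a pseudocount of 0.1 and 11 among protein-coding genes. Near an overlapping site, lower genes numbered 9 with a pseudocount of 5. Higher genes numbered 13 with 0.1, 5 with a pseudocount of 5 and 5 among protein-coding genes. Median GC was 59.7% for H3T6ph and 62.7% for LSD1 with peaks on the start itself. The protein-coding split and the removal of the highest-scoring 1% were chosen after seeing the data. Unknown ChIP depth limits every statement on a missing peak: a site absent from a list may lie under its score minimum of 50.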

Other observations

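In some gene groups no member was near both lists. Of 6 measured REST neuronal target genes 0 had a peak of either list within 20 kb, and of 14 immediate early genes 0 were near H3T6ph and 5 near LSD1. Of 14 housekeeping genes 2 were near H3T6ph, 1 near LSD1 and 0 near both, against 18.1%, 41.7% and 10.4% of all genes. Their median intervals were short, at 13.2, 3.64 and 20.1 kb against 31.8 kb for all genes, and the part of length in these counts was not tested.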
